A study of Homo sapiens with 6 samples.

Results

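RNA levels of 9 genes of the NOTCH pathway were compared between Pep2-E3 cells and parental MDA-MB-231 cells. The genes are the receptors NOTCH1, NOTCH2 and NOTCH3, the ligands JAG1 and JAG2, and the transcriptional repressors HES1, HES4, HES7 and HEY1. They were chosen by name, and all 9 were found by Ensembl identifier among the 30099 genes listed for each library. In GRCh38 coordinates of GENCODE release 29, NOTCH1 (ENSG00000148400) lies at chr9:136494433-136545786, NOTCH2 (ENSG00000134250) at chr1:119911553-120069626 and NOTCH3 (ENSG00000074181) at chr19:15159038-15200981. JAG1 (ENSG00000101384) lies at chr20:10637684-10673999 and JAG2 (ENSG00000184916) at chr14:105140981-105168824. HES1 (ENSG00000114315) lies at chr3:194136145-194138732, HES4 (ENSG00000188290) at chr1:998962-1000172, HES7 (ENSG00000179111) at chr17:8120590-8124092 and HEY1 (ENSG00000164683) at chr8:79764010-79767863. HES1 is on the plus strand and the other 8 on the minus strand. MDA-MB-231 is an established human breast cancer line. Pep2-E3 cells share its background and carry the genotype label Pep-E3, while the parental cells are labelled control. The labels do not say what Pep-E3 stands for, whether Pep2-E3 is a clone, or whether the 3 libraries of each group came from separate cultures. The p-values therefore reflect how far these libraries scattered, and that scatter may be technical only.

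NOTCH receptors are cut at the cell surface and then inside the membrane by gamma-secretase after a ligand on a neighbouring cell binds them. The released intracellular part enters the nucleus and joins the DNA-binding protein RBPJ and a Mastermind coactivator at target genes. HES and HEY genes are classic targets and encode basic helix-loop-helix repressors, and HES1 also represses its own promoter. NOTCH1, JAG1 and HES1 are widely studied in triple-negative breast cancer cells, the class to which MDA-MB-231 belongs.

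The values are FPKM, in which a fragment count is divided by exon length and by depth, so levels are set side by side between genes. Exon length is the union of all annotated exons, which exceeds the longest transcript by unlike amounts. It was 16807 against 11389 bases for NOTCH2, 9298 against 5940 for JAG1 and 10377 against 9306 for NOTCH1. Levels, shares and ratios between genes depend on that length. Each FPKM value resolved into a whole number of fragments, with 17154511 to 17289162 fragments per Pep2-E3 library and 17538266 to 18206694 per MDA-MB-231 library. Pep2-E3 replicate 1 stood apart. Its fragment counts differed from those of replicates 2 and 3 by a mean chi-square per gene of 16.4 and 21.5. That value was 4.39 between Pep2-E3 replicates 2 and 3, and 2.8 to 4.1 between MDA-MB-231 libraries. The Spearman correlation between a library's deviation from the others of its group and the GC content of a gene was computed across 14235 genes. It was 0.59 in Pep2-E3 replicate 1, -0.29 and -0.53 in the other Pep2-E3 libraries and -0.14 to 0.17 in the MDA-MB-231 libraries. Each correlation is relative to the group, so those of Pep2-E3 replicates 2 and 3 partly mirror replicate 1. The members that passed, and the other results that changed without Pep2-E3 replicate 1, are therefore also given without it. Markers were checked against the label. Of 12 luminal epithelial markers 3, the cadherin CDH1 and the hormone receptors ESR1 and PGR, were under 0.5 FPKM in all 6 libraries. The other 9 were not, and the 12 summed to 233 to 260 FPKM in Pep2-E3 and 233 to 249 FPKM in MDA-MB-231, with the keratin KRT19 at 90.3 to 100.1 FPKM in Pep2-E3 and 98.6 to 104 FPKM in MDA-MB-231. Of 6 genes listed as high in claudin-low breast lines, the class of MDA-MB-231, SPARC was under 0.5 FPKM in all 6 libraries, and the 6 summed to 805 to 852 FPKM in Pep2-E3 and 883 to 887 FPKM in MDA-MB-231. Of 5 leukocyte markers 3 were listed, and all 3 were under 0.5 FPKM in every library. Of the basal, fibroblast and endothelial markers 4, 5 and 4 were listed, and 3, 4 and 3 were under 0.5 FPKM in all 6 libraries. The exceptions were ACTA2 (0.268 to 0.842 FPKM), COL1A1 (1.11 to 1.39 FPKM) and KDR (0.855 to 1.38 FPKM).

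In Pep2-E3 cells HES1 rose, HES7 and JAG2 fell, and the 3 receptors and JAG1 did not pass the test. HES4 did not pass either, and HEY1 was too low to be tested. Genes with a mean of at least 0.5 FPKM over the 6 libraries were tested with limma on log2(FPKM + 1), with Benjamini-Hochberg adjustment over all 14235 tested genes and a threshold of 0.05. Of the 8 tested members 3 passed, 1 higher and 2 lower. Across all tested genes 30.8% passed, 14.6% higher and 16.2% lower, so the share of members that passed is near the background. The FPKM values of the groups did not overlap in 3 of the 8 tested members, against 48.8% of all tested genes. The levels of a bulk library do not tell fewer expressing cells from less RNA per cell.

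**Figure D1:**
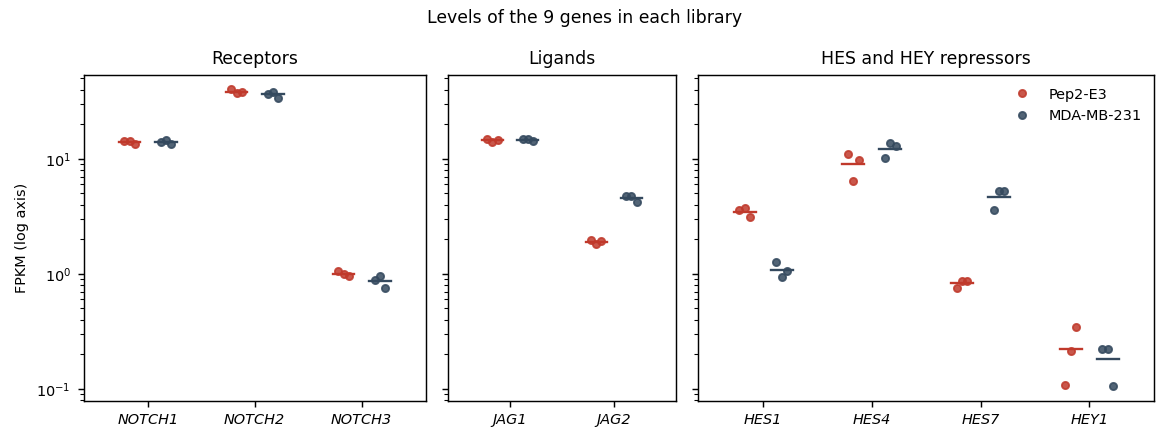
FPKM (log axis) of the 9 genes in each of the 3 Pep2-E3 and 3 MDA-MB-231 libraries; points are libraries and short lines group means. The points of JAG2, HES1 and HES7 separate by group, as do those of 48.8% of all tested genes. Those of the receptors, JAG1, HES4 and HEY1 overlap.

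NOTCH2 was the most abundant of the 9 genes. It had 40.2, 37.1 and 37.8 FPKM in Pep2-E3 replicates 1, 2 and 3, against 36.8, 38.4 and 34.1 FPKM in MDA-MB-231. The groups overlapped, and the log2 fold change of Pep2-E3 over MDA-MB-231 was 0.07 ± 0.06 (SE; limma adjusted p = 0.381), with a 95% interval of -0.07 to 0.22. After each library was corrected for GC content and exon length it was 0.13 and passed (limma adjusted p = 0.0423), but with that correction and without Pep2-E3 replicate 1 it did not (limma adjusted p = 0.0642). NOTCH2 has partial copies such as NOTCH2NLA, and 4.6% of its 50-base words are found elsewhere in the annotation, so a small part of its fragments is uncertain.

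NOTCH1, the receptor with activating mutations in T-cell leukaemia, had 14.4, 14.4 and 13.5 FPKM in the Pep2-E3 libraries, against 14.0, 14.7 and 13.4 FPKM in the MDA-MB-231 libraries. Its levels interleaved, and the log2 fold change was 0.01 ± 0.06 (SE; limma adjusted p = 0.95), with an interval of -0.13 to 0.14. NOTCH3, whose human mutations cause the small-vessel disease CADASIL, was near the lower limit of what was tested. It had 1.06, 0.997 and 0.949 FPKM in Pep2-E3, against 0.879, 0.959 and 0.747 FPKM in MDA-MB-231, and the log2 fold change was 0.11 ± 0.09 (SE; limma adjusted p = 0.38). The interval for NOTCH3 reached from -0.10 to 0.31, wider than that of the more abundant receptors. NOTCH4, the remaining mammalian receptor, averaged 0.0914 FPKM in Pep2-E3 and 0.0757 FPKM in MDA-MB-231 and was not tested.

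NOTCH2 made up most of the receptor transcripts in every library. It took 71.8% ± 0.90 of the summed FPKM of the 3 receptors in Pep2-E3 and 71.0% ± 0.34 in MDA-MB-231 (SD, n = 3 each; exact two-sided permutation p = 0.3). NOTCH1 took 26.3% ± 0.87 in Pep2-E3 and 27.4% ± 0.45 in MDA-MB-231 (SD, n = 3 each; exact permutation p = 0.3). NOTCH3 took 1.87% ± 0.05 in Pep2-E3 and 1.67% ± 0.12 in MDA-MB-231, with no overlap (SD, n = 3 each; exact permutation p = 0.1). That is the smallest p that 3 against 3 libraries can give. The summed receptor level was 53.5 ± 1.92 FPKM in Pep2-E3 and 51.3 ± 2.91 FPKM in MDA-MB-231 (SD, n = 3 each).

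The ligands JAG1 and JAG2 are transmembrane proteins that activate NOTCH receptors on neighbouring cells. JAG1, mutated in Alagille syndrome, had 14.8, 14.1 and 14.5 FPKM in Pep2-E3, against 14.8, 14.8 and 14.2 FPKM in MDA-MB-231. Its groups overlapped, and the log2 fold change was -0.02 ± 0.05 (SE; limma adjusted p = 0.829), with an interval of -0.13 to 0.10. Its sign turned with the scaling between libraries, so no direction is given for it.

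JAG2 had 1.96, 1.80 and 1.93 FPKM in Pep2-E3, against 4.73, 4.72 and 4.22 FPKM in MDA-MB-231. Every Pep2-E3 value lay under every MDA-MB-231 value, and within each group the libraries lay close together. The mean was 2.40-fold lower in Pep2-E3 and rested on 199 to 215 fragments per Pep2-E3 library and 474 to 550 per MDA-MB-231 library. The log2 fold change was -0.94 ± 0.07 (SE; limma adjusted p = 0.000445). It was -0.95 without Pep2-E3 replicate 1 (limma adjusted p = 0.000653) and -0.92 after the GC and length correction. On this scale it depends on the pseudocount, being -0.47 with a pseudocount of 5. Of the exon bases of JAG2, 7.3% overlap an annotated gene on the same strand (ENSG00000257622), with which fragments may be shared.

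JAG2 took 11.6% ± 0.23 of the summed JAG level in Pep2-E3 and 23.7% ± 0.74 in MDA-MB-231, without overlap (SD, n = 3 each). The ratio of JAG1 to JAG2 FPKM was 7.63 ± 0.18 in Pep2-E3 and 3.21 ± 0.13 in MDA-MB-231 (SD, n = 3 each; exact permutation p = 0.1, the smallest possible). The summed JAG level was 16.4 ± 0.45 FPKM in Pep2-E3 and 19.2 ± 0.63 FPKM in MDA-MB-231, again without overlap. The delta-like ligands DLL1, DLL3 and DLL4 were far lower than either JAG gene. DLL4 had 5 to 8 fragments per Pep2-E3 library and 15 to 28 per MDA-MB-231 library. DLL3, a ligand known to act inside the sending cell, had 2, 0 and 0 fragments in Pep2-E3, against 7, 6 and 6 in MDA-MB-231. DLL1 had 4, 3 and 1 fragments in Pep2-E3, against 4, 7 and 8 in MDA-MB-231. DLL1, DLL3 and DLL4 did not reach the level for testing. DLK2, a further delta-like gene, averaged 6.41 ± 0.37 FPKM in Pep2-E3 and 5.64 ± 0.54 FPKM in MDA-MB-231, above JAG2 in both. It did not pass (SD, n = 3 each; limma adjusted p = 0.165).

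HES1, HES4 and HES7 differ in the stretch before their transcription start, where RBPJ and HES proteins are known to bind. Promoter sequences from RefSeq (GRCh38.p14), held for 8 of the 9 members, were searched in the 250 bases before the start for TGGGAA, the core letters that RBPJ recognises, and for CACNAG, the N box of HES proteins, on both strands. The 3 stretches are shown because HES1 and HES7 moved in opposite directions and HES4 did not pass. They lie at chr3:194135898-194136147 (plus strand), chr1:1000098-1000347 (minus strand) and chr17:8124107-8124356 (minus strand), are written 5′ to 3′ on the strand of the gene, and have every match in capitals.
HES1: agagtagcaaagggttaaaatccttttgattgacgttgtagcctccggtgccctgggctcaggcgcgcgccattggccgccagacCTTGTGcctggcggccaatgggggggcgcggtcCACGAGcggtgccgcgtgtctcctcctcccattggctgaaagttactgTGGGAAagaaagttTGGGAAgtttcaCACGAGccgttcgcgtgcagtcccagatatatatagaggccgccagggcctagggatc
HES4: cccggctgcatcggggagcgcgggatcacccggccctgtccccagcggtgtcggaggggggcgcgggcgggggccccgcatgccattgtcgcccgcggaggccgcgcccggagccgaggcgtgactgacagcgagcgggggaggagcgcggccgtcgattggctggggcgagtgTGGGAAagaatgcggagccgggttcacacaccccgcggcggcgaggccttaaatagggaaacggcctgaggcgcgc
HES7: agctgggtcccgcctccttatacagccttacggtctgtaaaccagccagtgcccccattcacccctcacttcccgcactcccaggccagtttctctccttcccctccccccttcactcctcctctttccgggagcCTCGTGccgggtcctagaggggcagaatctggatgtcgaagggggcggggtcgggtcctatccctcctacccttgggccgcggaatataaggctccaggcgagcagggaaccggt
HES1 held 2 TGGGAA matches separated by 8 bases, the nearer one ending 65 bases before the start, and 3 CACNAG matches. HES4 held 1 TGGGAA match, which ended 71 bases before the start, and no CACNAG match. HES7 held no TGGGAA match in this window and 1 CACNAG match, read on the opposite strand as CTCGTG. Neither motif overlapped the other. Among 35116 promoters of the same length, 20.9% held TGGGAA at least once, 2.9% at least 2 times, and 32% held CACNAG. Among the other members, NOTCH3 held 1 CACNAG match, and NOTCH1, NOTCH2, JAG1 and JAG2 held neither. A match describes these letters and does not show binding.

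HES1 had 3.56, 3.73 and 3.11 FPKM in Pep2-E3, against 1.26, 0.932 and 1.05 FPKM in MDA-MB-231. All Pep2-E3 values lay above all MDA-MB-231 values. Its mean was 3.21-fold higher in Pep2-E3, from 110 to 133 fragments per Pep2-E3 library and 35 to 47 per MDA-MB-231 library. The log2 fold change was 1.10 ± 0.09 (SE; limma adjusted p = 0.000671), and 1.09 without Pep2-E3 replicate 1. The scale understates a change at this level: limma-voom on the recovered fragments gave 1.70, and a pseudocount of 5 gave 0.48.

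HES7, known as an oscillating repressor of the segmentation clock in vertebrate embryos, moved the other way. It had 0.749, 0.867 and 0.874 FPKM in Pep2-E3, against 3.60, 5.20 and 5.25 FPKM in MDA-MB-231. The groups were far apart, and MDA-MB-231 replicate 1 was the lowest of its group. The mean was 5.64-fold lower in Pep2-E3, with 24 to 28 fragments per Pep2-E3 library and 122 to 177 per MDA-MB-231 library. The log2 fold change was -1.62 ± 0.13 (SE; limma adjusted p = 0.000574), and -1.59 without Pep2-E3 replicate 1. It was -2.43 with limma-voom on fragments and -0.73 with a pseudocount of 5.

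HES4, a close relative of HES1, has the RBPJ letters at a like distance from its RefSeq start. Its GENCODE start, chr1:1000172, lies inside the stretch searched, so that distance depends on the start used. HES4 had the highest level of the 4 repressors in every library. It had 11.1, 6.36 and 9.70 FPKM in Pep2-E3, against 10.1, 13.7 and 12.9 FPKM in MDA-MB-231. The groups overlapped, with Pep2-E3 replicate 2 the lowest and Pep2-E3 replicate 1 above the lowest parental library. The log2 fold change was -0.42 ± 0.20 (SE; limma adjusted p = 0.15), with an interval of -0.88 to 0.05, and it did not pass when any 1 library was left out (limma adjusted p = 0.0537 to 0.346). HES4 has the highest GC content of the members, 73.9% in its longest transcript, and the library with the strongest GC trend, Pep2-E3 replicate 1, had the highest HES4 level of its group. For HES4 the log2 fold change was -0.57 without that library and -0.33 after the GC and length correction. It was -0.21 without Pep2-E3 replicate 2, the lowest of the group. The GC trends of Pep2-E3 replicates 2 and 3, -0.29 and -0.53, partly mirror that of replicate 1 and cannot be set against their HES4 levels. What part GC content has in the HES4 levels was not tested.

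HEY1, a target gene known in heart and vessel development, had 0.108, 0.215 and 0.343 FPKM in Pep2-E3, against 0.221, 0.221 and 0.106 FPKM in MDA-MB-231. These values correspond to 6, 12 and 19 fragments in Pep2-E3 and to 13, 13 and 6 in MDA-MB-231, and a difference was not detectable at this depth. Together the 4 repressors summed to 13.6 ± 2.21 FPKM in Pep2-E3 and 18.2 ± 2.63 FPKM in MDA-MB-231, which overlapped (SD, n = 3 each; exact permutation p = 0.2). Without Pep2-E3 replicate 1 the sums no longer overlapped, at 11.2 and 14.0 FPKM in Pep2-E3 and 15.2 to 20.1 FPKM in MDA-MB-231. The shares of HES1 and HES7 in that sum did not overlap between the groups. HES1 made up 26.2% ± 6.26 of it in Pep2-E3 and 6.12% ± 1.91 in MDA-MB-231, and HES7 made up 6.27% ± 1.47 in Pep2-E3 and 25.6% ± 1.76 in MDA-MB-231 (SD, n = 3 each; exact permutation p = 0.1 for both, the smallest possible). HES1 exceeded HES7 in every Pep2-E3 library, with a ratio of 3.56 to 4.76, and was under it in every MDA-MB-231 library, with a ratio of 0.179 to 0.349.

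Of the other HES and HEY genes, HES6, which in mouse counteracts HES1, averaged 2.92 ± 0.33 FPKM in Pep2-E3 and 3.08 ± 0.41 FPKM in MDA-MB-231 (SD, n = 3 each; limma adjusted p = 0.696). HES2 averaged 1.01 ± 0.18 FPKM in Pep2-E3 and 1.04 ± 0.09 FPKM in MDA-MB-231 (SD, n = 3 each; limma adjusted p = 0.906). HES5, a main NOTCH target in the nervous system, had 0 to 2 fragments in any library. HEY2 and HEYL stayed below the level for testing, with 5 to 9 and 8 to 22 fragments per Pep2-E3 library and 2 to 4 and 15 to 22 per MDA-MB-231 library.

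Ordered by mean FPKM, which depends on the exon length used, the Pep2-E3 levels ran NOTCH2, JAG1, NOTCH1, HES4, HES1, JAG2, NOTCH3, HES7, HEY1. The only neighbours in this order whose libraries overlapped were JAG1 and NOTCH1. In MDA-MB-231 the order was NOTCH2, JAG1, NOTCH1, HES4, HES7, JAG2, HES1, NOTCH3, HEY1, and the neighbours JAG1 and NOTCH1, NOTCH1 and HES4, HES7 and JAG2, and HES1 and NOTCH3 overlapped. HES1 stood above JAG2 and HES7 in Pep2-E3 and below both in MDA-MB-231. NOTCH2 exceeded 92.1% of the tested genes in Pep2-E3 and 91.9% in MDA-MB-231, while HES1 exceeded 41.2% in Pep2-E3 and 15.2% in MDA-MB-231, and HES7 exceeded 11.8% in Pep2-E3 and 47.5% in MDA-MB-231.

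A further 89 genes of the pathway were listed by role, of which 85 were in the tables and 70 were tested. Of these 70, 14 were higher and 10 lower in Pep2-E3, 34.3% in all against the 30.8% of all tested genes. Their median log2 fold change was -0.02, as was that of all tested genes. The counts by role given below rest on at most 13 tested genes each and were not tested against the share of all genes. Without MDA-MB-231 replicates 1, 2 and 3 in turn, 14, 14 and 15 of the 70 passed (20%, 20% and 21.4%). In the same fits 19%, 17.4% and 20.3% of all tested genes passed. Without Pep2-E3 replicate 1, 22 of the 24 calls remained, LFNG and RFNG were lost, and MIB1, TLE3, NUMB and DTX3 passed in addition.

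Among the genes that cut the receptors, the gamma-secretase genes PSEN2, NCSTN and APH1A were higher, as were 14.6% of all tested genes. The gamma-secretase gene APH1B and the proteases ADAM17 and FURIN did not pass (limma adjusted p = 0.757, 0.302 and 0.774). PSEN2, which encodes a catalytic subunit, had 11.7, 11.5 and 10.9 FPKM in Pep2-E3, against 8.91, 9.25 and 9.15 FPKM in MDA-MB-231 (log2 fold change 0.29 ± 0.05, SE; limma adjusted p = 0.00767). The substrate-binding NCSTN rose by 0.25 ± 0.06 (limma adjusted p = 0.0157) and the scaffold APH1A by 0.25 ± 0.05 (limma adjusted p = 0.0124; log2, SE). In these 3 genes the groups did not overlap, as in 48.8% of all tested genes. PSEN2 still passed when any 1 library was left out. NCSTN did not without MDA-MB-231 replicate 1, MDA-MB-231 replicate 3 or Pep2-E3 replicate 2 (limma adjusted p up to 0.0617), nor APH1A without MDA-MB-231 replicate 2 (limma adjusted p = 0.0504). The surface protease ADAM10, which makes the first cut after ligand binding, averaged 10.5 ± 1.75 FPKM in Pep2-E3 and 12.6 ± 0.51 FPKM in MDA-MB-231 and did not pass (SD, n = 3 each; limma adjusted p = 0.123). PSENEN, the smallest subunit, did not pass either, and 41% of its exon bases overlap genes on the opposite strand.

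**Figure D2:**
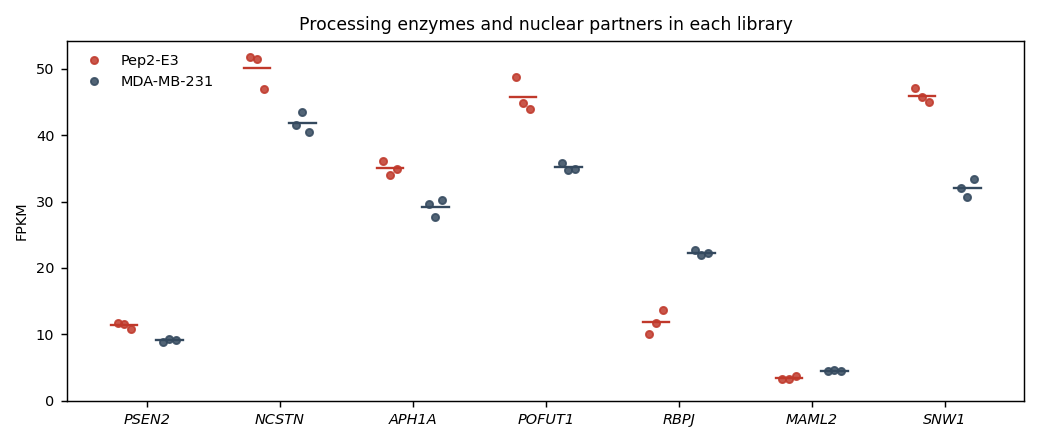
FPKM of 3 gamma-secretase genes, the fucosyltransferase POFUT1 and 3 nuclear partners in each library; points are libraries, short lines group means, and the axis starts at 0. Pep2-E3 points lie above the MDA-MB-231 points for the first 4 genes and SNW1, and below them for RBPJ and MAML2.

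The nuclear partners moved both ways, with 2 of 8 tested coactivator genes higher and 2 lower, beside 14.6% and 16.2% of all tested genes. RBPJ, through which every receptor reaches DNA, had 10, 11.7 and 13.6 FPKM in Pep2-E3, against 22.7, 21.9 and 22.3 FPKM in MDA-MB-231. Its Pep2-E3 libraries were spread more widely than its parental ones, and all lay under them. The mean was 1.89-fold lower in Pep2-E3 (log2 fold change -0.87 ± 0.10, SE; limma adjusted p = 0.00179). RBPJ has processed pseudogenes, and whether they share its fragments was not tested. It has a GC content of 38% and was lowest in Pep2-E3 replicate 1. The log2 fold change was -0.77 without that library and -0.71 after the GC and length correction, with an adjusted p of 0.000849 and 0.000167 in limma.

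The Mastermind gene MAML2 averaged 3.39 ± 0.26 FPKM in Pep2-E3 and 4.55 ± 0.06 FPKM in MDA-MB-231 (SD, n = 3 each; limma adjusted p = 0.00988), MAML1 averaged 12.0 ± 0.73 FPKM in Pep2-E3 and 12.2 ± 0.53 FPKM in MDA-MB-231 and did not pass, and MAML3 was below the level for testing. SNW1, a splicing factor that also binds the NOTCH complex, averaged 45.9 ± 1.01 FPKM in Pep2-E3 and 32.0 ± 1.32 FPKM in MDA-MB-231 (SD, n = 3 each; limma adjusted p = 0.00103). The acetyltransferase CREBBP rose by 0.31 ± 0.07 on the log2 scale (SE; limma adjusted p = 0.0152), a call lost without MDA-MB-231 replicate 3 (limma adjusted p = 0.0549). None of 13 tested corepressor genes passed in limma, beside 30.8% of all tested genes. Before adjustment 3 of the 13 corepressor genes, HDAC1, SPEN and TLE3, had a limma p under 0.05. Every gene that passed also meets that threshold, so the share of all tested genes that meet it is at least 30.8%. Without Pep2-E3 replicate 1, TLE3 passed as lower in Pep2-E3 (log2 fold change -0.33; limma adjusted p = 0.0383).

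Sugar transferases that act on the receptors also moved both ways, 3 of 8 tested higher and 2 lower, beside 14.6% and 16.2% of all tested genes. POFUT1, which adds the fucose needed for ligand binding, averaged 45.8 ± 2.53 FPKM in Pep2-E3 and 35.2 ± 0.61 FPKM in MDA-MB-231 (SD, n = 3 each; limma adjusted p = 0.0035). The xylosyltransferase GXYLT2 averaged 1.08 ± 0.17 FPKM in Pep2-E3 and 2.49 ± 0.42 FPKM in MDA-MB-231 (SD, n = 3 each; limma adjusted p = 0.0043). XXYLT1, which adds the next xylose, was higher by 0.39 ± 0.09, and the Fringe gene RFNG was lower, at -0.27 ± 0.08 (log2, SE). LFNG, another Fringe gene, was higher by 0.35 ± 0.10 (log2, SE), but passed in 7 of 18 alternatives only. XXYLT1 lost its call without MDA-MB-231 replicate 1 or 2 (limma adjusted p up to 0.0622). RFNG lost its call without any 1 library other than Pep2-E3 replicate 2 (limma adjusted p up to 0.118), and 21.6% of the exon bases of RFNG overlap GPS1 on the opposite strand.

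Of 5 tested genes for ligand endocytosis, the ubiquitin ligase NEURL1B was lower (-0.29 ± 0.07, log2, SE; limma adjusted p = 0.0173), a call lost without MDA-MB-231 replicate 1, MDA-MB-231 replicate 2 or Pep2-E3 replicate 2 (limma adjusted p up to 0.071). MIB1, the main ligase for JAG and delta-like ligands, had 3.91, 6.81 and 8.79 FPKM in Pep2-E3, against 10.4, 10.5 and 9.84 FPKM in MDA-MB-231. The groups did not overlap, but the Pep2-E3 libraries were widely spread, with replicate 1 lowest, and MIB1 did not pass (log2 fold change -0.64 ± 0.23, SE; limma adjusted p = 0.0753). Without that library the log2 fold change was -0.36 and passed (limma adjusted p = 0.0305). Among 12 tested genes for receptor trafficking and turnover 2 were higher and 3 lower, beside 14.6% and 16.2% of all tested genes. FBXW7, the ligase subunit that marks the cleaved receptor for destruction, averaged 1.76 ± 0.13 FPKM in Pep2-E3 and 3.04 ± 0.40 FPKM in MDA-MB-231 (SD, n = 3 each; limma adjusted p = 0.00666). The Deltex genes went apart, DTX3L higher by 0.27 ± 0.07 and DTX2 lower, at -0.24 ± 0.06 (log2, SE), and the ligase WWP2 was higher by 0.25 ± 0.07. The calls of DTX3L, DTX2 and WWP2 were each lost when any 1 MDA-MB-231 library or Pep2-E3 replicate 3 was left out, with limma adjusted p-values of up to 0.13.

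Of 10 other genes known as NOTCH targets in some tissue, 3 were higher and 2 lower, beside 14.6% and 16.2% of all tested genes. NRARP, a target that feeds back on the NOTCH complex, averaged 2.2 ± 0.25 FPKM in Pep2-E3 and 2.76 ± 0.39 FPKM in MDA-MB-231, with overlap (SD, n = 3 each; limma adjusted p = 0.134). GATA3, a target in T helper cells and a regulator of luminal breast cells, averaged 2.10 ± 0.38 FPKM in Pep2-E3 and 0.846 ± 0.09 FPKM in MDA-MB-231 (SD, n = 3 each; limma adjusted p = 0.00416). SNAI2, a repressor of epithelial genes, averaged 1.55 ± 0.05 FPKM in Pep2-E3 and 0.653 ± 0.15 FPKM in MDA-MB-231 (SD, n = 3 each; limma adjusted p = 0.00416). The cell-cycle inhibitor CDKN1A averaged 33.0 ± 1.42 FPKM in Pep2-E3 and 24.8 ± 1.62 FPKM in MDA-MB-231 (SD, n = 3 each; limma adjusted p = 0.005). The cytokine receptor IL7R averaged 2.67 ± 0.16 FPKM in Pep2-E3 and 4.73 ± 0.41 FPKM in MDA-MB-231 (SD, n = 3 each; limma adjusted p = 0.00195). MYC averaged 83.1 ± 7.11 FPKM in Pep2-E3 and 97.3 ± 3.60 FPKM in MDA-MB-231, and passed narrowly (SD, n = 3 each; limma adjusted p = 0.0444). MYC did not pass with any of the 3 other scalings between libraries, nor when any 1 library other than Pep2-E3 replicate 1 was left out (limma adjusted p up to 0.134).

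**Figure D3:**
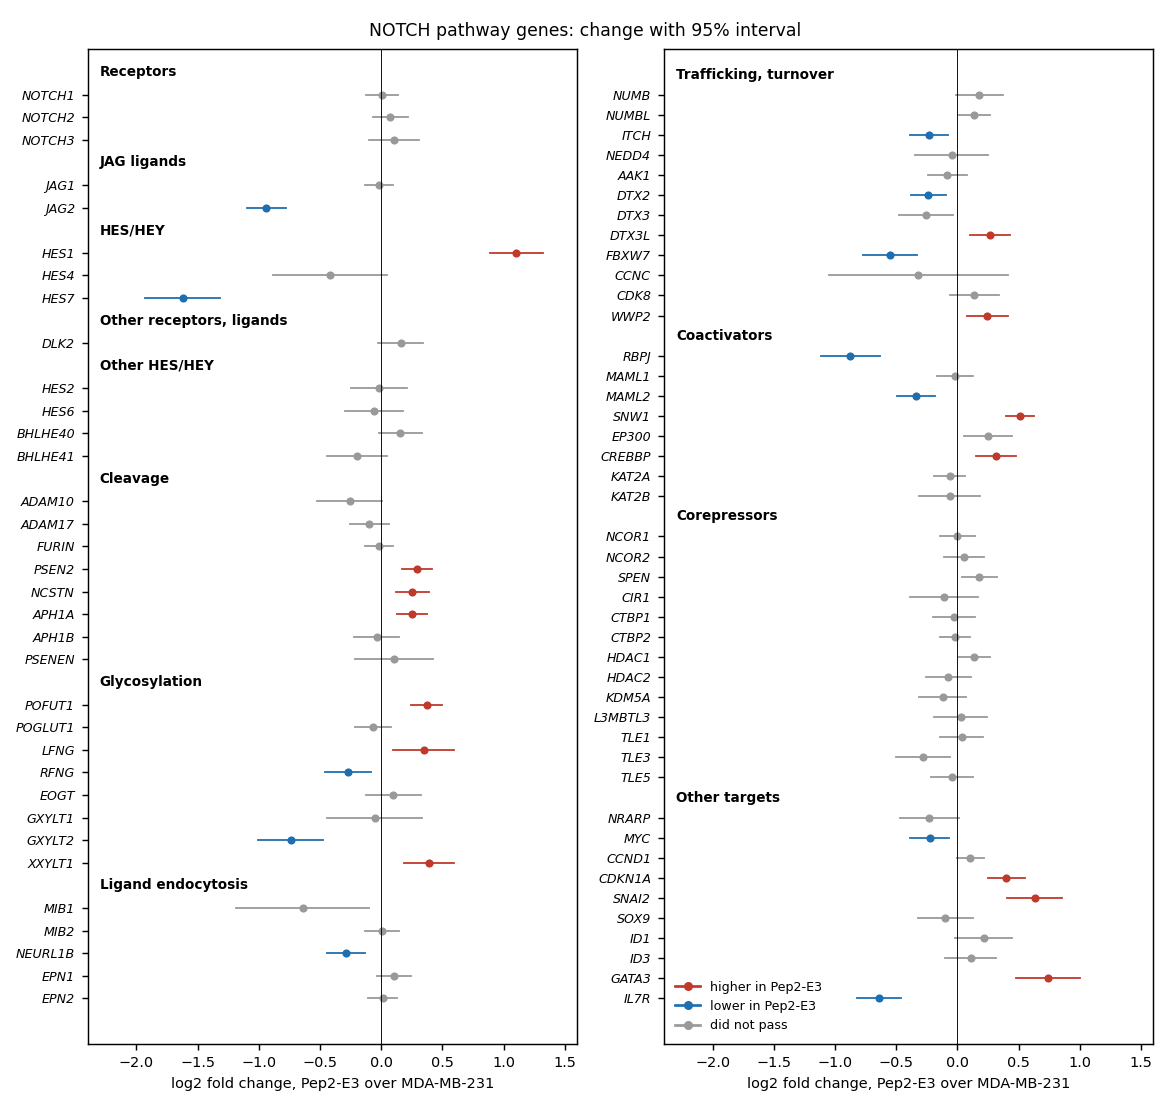
Log2 fold change of Pep2-E3 over MDA-MB-231 on the log2(FPKM + 1) scale, with its 95% interval, for the 8 tested members and other tested pathway genes, grouped by role; colour marks genes that passed. PSEN2, NCSTN and APH1A lie to the right of 0 and pass, and all 13 corepressors are grey.

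Of the members that passed, only JAG2 had neighbours on its chromosome that mostly moved with it. Of the 20 tested genes around JAG2 on chromosome 14, 12 were lower and 0 higher, and their median log2 fold change was -0.41, with a range of -1.13 to 0.04. Around RBPJ on chromosome 4, 13 of 20 were lower and 0 higher, with a median of -0.44. RBPJ was examined in this way after its values were seen. Across all tested genes 16.2% were lower. The genes around HES1 and HES7 did not share their direction: their medians were -0.10 and 0.09, against 1.10 for HES1 and -1.62 for HES7, and 5 were higher and 2 lower around HES1 and 3 higher and 1 lower around HES7. Around the members that did not pass or were not tested, the neighbour medians ran from -0.13 (HEY1) to 0.09 (NOTCH2). Around JAG1 6 neighbours were higher and 2 lower. What part a change of the whole segment has in the levels of JAG2 and RBPJ was not tested.

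**Figure D4:**
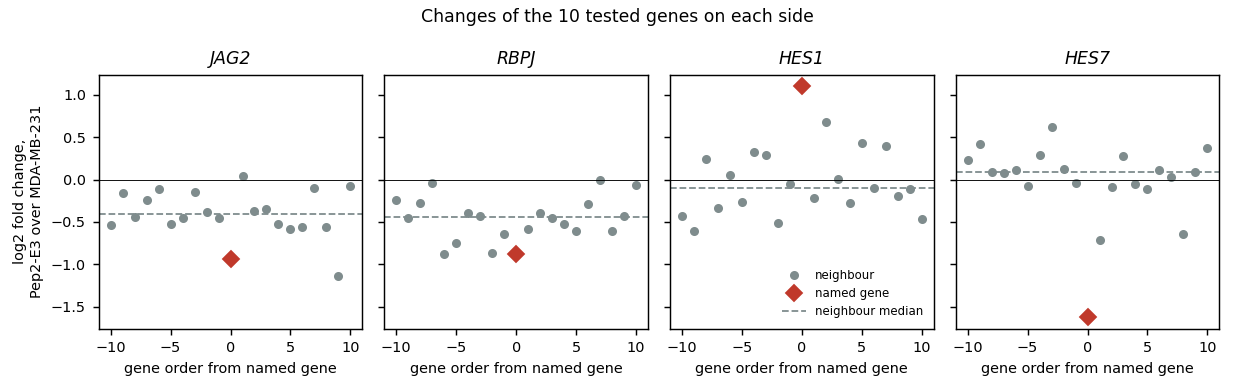
Log2 fold change of Pep2-E3 over MDA-MB-231 for the 10 tested genes on each side of JAG2, RBPJ, HES1 and HES7, in their order on the chromosome; the diamond is the named gene and the dashed line the median of its neighbours. Nearly all neighbours of JAG2 and RBPJ lie below 0, whereas those of HES1 and HES7 lie on both sides.

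For each member that passed, the tested genes with the most similar pattern were found by the root mean square distance of log2(FPKM + 1), centred on each gene's mean over the 6 libraries. Nearest to JAG2 were HID1 and the basement membrane proteoglycan HSPG2, both at a distance of 0.04. HSPG2 averaged 7.64 ± 0.24 FPKM in Pep2-E3 and 15.2 ± 1.13 FPKM in MDA-MB-231. Nearest to HES1 were ENSG00000263826 (0.07) and MIR22HG, the host transcript of a microRNA (0.08), which averaged 13.7 ± 0.89 FPKM in Pep2-E3 and 5.31 ± 0.73 FPKM in MDA-MB-231. Nearest to HES7 were a Y RNA gene (ENSG00000275930; 0.10), listed at 0 in all Pep2-E3 libraries, and the matrix protein gene MATN2 (0.16). With 2 groups such a distance mostly reflects the size of the group difference.

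**Figure D5:**
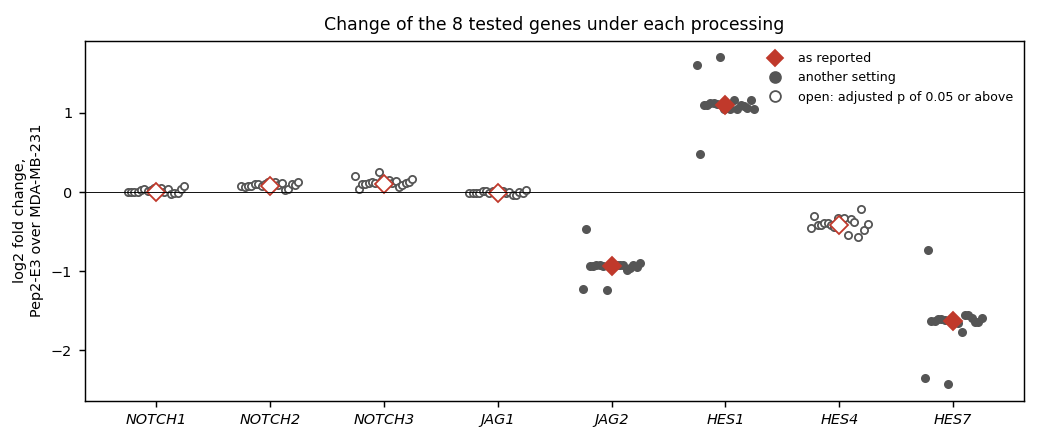
Log2 fold change of Pep2-E3 over MDA-MB-231 of the 8 tested members as reported (diamond) and under each of 18 other settings (circles); filled symbols passed. JAG2, HES1 and HES7 are filled under all settings and keep their sign, and the 3 farthest points of each are other pseudocounts and limma-voom on fragments.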

How the data were processed

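RNA from 3 Pep2-E3 and 3 MDA-MB-231 libraries was extracted with Trizol and made into libraries with a NEBNext Ultra kit, per the labels' protocols. Per the submitters' processing notes, the tools were HTSeq 0.6.0, Bowtie2 2.2.3 and HISAT2 2, with no role given. These notes name a mouse build (mm8), whereas the identifiers are human. All 30099 were found in GENCODE release 29. The authors deposited FPKM values per gene and library. FPKM times union exon length and library total gave whole fragments, within 0.001, for 100% of values. Whether counting used strand is not given in the sources used here.

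Differences were tested with limma 3.58.1 (R 4.3.3), with a trend on log2(FPKM + 1) and the group as the only term. The 14235 genes with a mean of at least 0.5 FPKM were tested. The fit was checked on simulated data that took the scatter of both groups from the MDA-MB-231 libraries and held no GC effect. That check did not cover the wider scatter of the Pep2-E3 libraries. Shares and ratios were tested by exact permutation. Promoters came from RefSeq. Alternatives were pseudocounts of 0.1 and 5, dropping the filter, requiring 1 CPM in 3 libraries, RLE and upper-quartile factors, limma-voom on fragments, depth computed after dropping mitochondrial genes and the top 50 genes, a GC and length correction (natural splines, 5 degrees of freedom), a replicate block, and leaving out each library.

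The members and lists were chosen with earlier results of these data known. Per role, genes named were those that passed with the 2 smallest p-values in each direction, plus listed partners of the members. NCSTN, APH1A, APH1B, ADAM10, ADAM17, FURIN, PSENEN, LFNG, MIB1, CDKN1A, NUMB, DTX3, HDAC1, SPEN, TLE3 and DLK2 were named after their values were seen. A pathway gene is not reported here. Intervals cover the spread between libraries only.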

Additional observations from a re-analysis of the deposited data

How the results depend on the processing

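The calls of JAG2, HES1 and HES7 and their directions held under all 18 alternatives, with log2 fold changes of -1.24 to -0.47, 0.48 to 1.70 and -2.43 to -0.73. NOTCH3 and HES4 did not pass under any of the 18, and NOTCH2 passed under the GC and length correction alone. The log2 fold change of JAG1 turned positive with RLE factors (0.00885), upper-quartile factors (0.0132), limma-voom (0.00928), the GC and length correction (0.0165), that correction with a replicate block (0.0165), that correction without Pep2-E3 replicate 1 (0.0239) and without Pep2-E3 replicate 2 (leaving out single libraries gave -0.034 to 0.00203). That of NOTCH1 turned negative without MDA-MB-231 replicate 3, Pep2-E3 replicate 1 or Pep2-E3 replicate 2. It stayed positive without each of the other libraries (leaving out single libraries gave -0.0228 to 0.035). The cause of these turns was not tested. Leaving out single libraries left 14 to 26 pathway genes and 2471 to 4866 of all genes called, against 24 and 4383, and fewer samples entered those fits. The JAG1 to JAG2 ratio in fragments, not per length, differed by 6.41 (11.1 in Pep2-E3, 4.67 in MDA-MB-231), against 4.41 in FPKM. RLE factors gave 2224 higher and 2090 lower genes. Replicate numbers did not pair the libraries: deviations of same-numbered libraries correlated at -0.04, 0.04 and -0.06. With the replicate block, 3 members, 18 pathway genes and 2966 genes were called. Depth limits HEY1, DLL1, DLL3 and DLL4, which rest on under 30 fragments per library.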
